A study of Mus musculus with 2 samples.

Results

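The 10 genes described here belong to the Hippo pathway: the transcriptional coactivators Yap1 and Wwtr1 (which encodes TAZ), the DNA-binding partners Tead1, Tead2, Tead3 and Tead4, the kinases Lats1 and Lats2, and the angiomotin-like scaffolds Amotl1 and Amotl2. They were taken by symbol from a table of 24862 genes, and all 10 were listed. RNA sequencing was carried out on polyA RNA of GFP+ cells, which the study equates with Pref-1+ cells, from the stromal vascular fraction of inguinal white fat of male mice at 3 weeks of age. There was 1 Sox9 PreASKO library, titled KO, and 1 Sox9 floxed library, titled WT, and the mice of both groups had received doxycycline on postnatal day 1. The design text gives a pool of 6 mice without saying whether that is per genotype. The labels used here name neither the promoter that drives the recombinase or the GFP nor the floxed exons, and they do not say whether the floxed mice carry the recombinase.

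In the Hippo pathway a kinase cascade ends in LATS1 and LATS2, which phosphorylate YAP and TAZ and so keep them out of the nucleus. Unphosphorylated YAP and TAZ enter the nucleus and bind TEAD proteins on DNA, since they cannot bind DNA themselves. The pathway responds to cell density, cell shape and stiffness of the matrix. In mesenchymal precursors TAZ is known to bind PPARG, the main regulator of adipocyte differentiation, and to restrain its activity. The proteins act largely through phosphorylation and location, which transcript counts do not measure.

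The PreASKO library held 29172653 counts and the floxed library 37705236. Levels are in CPM, the gene's counts scaled to a library total that is the same for both libraries, and ratios are PreASKO over floxed. With 1 pooled library per genotype there is no replicate error and no test between genotypes, so every difference is a difference between 2 libraries. The ranges in parentheses are exact 95% intervals, and they hold counting error alone. Sox9, the targeted gene, had 73 counts in the PreASKO library and 228 in the floxed library, or 2.50 and 6.05 CPM, a ratio of 0.414 (0.313 to 0.541). Dlk1, which encodes Pref-1, had 24.0 CPM in PreASKO cells and 28.2 CPM in floxed cells.

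Markers of other cell types differed between the libraries, and their part in the ratios below was not tested. In bulk RNA, fewer cells of a type cannot be told apart from less RNA per cell. All 10 stromal markers, among them Pdgfra, Col1a1 and Dcn, were lower in the PreASKO library, with ratios of 0.498 to 0.682 and a summed level of 18858 CPM in PreASKO and 32983 CPM in floxed cells. All 7 mesothelial markers were lower, at 4.76 CPM summed in PreASKO and 171 CPM in floxed cells, and Upk1b was at 0 in PreASKO. All 8 macrophage markers were higher, at 18005 and 12123 CPM summed in PreASKO and floxed cells, and all 7 neutrophil markers had ratios over 1, at 95.7 and 22.7 CPM. All 7 mural markers had ratios under 1, at 300.2 CPM summed in PreASKO and 471 CPM in floxed cells, and of 8 endothelial markers 4 were lower and 4 higher, at 839 and 768 CPM. The 5 erythroid markers listed were all higher, at 1664 CPM summed in PreASKO and 800 CPM in floxed cells. Of 5 adipocyte markers 4 were lower and 1 higher, at 1211 and 1539 CPM. Of 8 lymphocyte markers 3 were lower and 5 higher, at 97.7 and 85.9 CPM. For each member the ratio is therefore also given relative to the summed stromal markers, whose own ratio was 0.572. On that scale the median log2 ratio of all genes shifts by 0.81, so a value of 1 there means a difference of the same size as that of the stromal markers. Sox9 stood at 0.724 and Dlk1 at 1.49 on it.

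Of the 10 members, 7 had lower and 3 had higher levels in the PreASKO library, beside 54.2% and 45.8% of all genes, whereas relative to the summed stromal markers 2 were lower and 8 higher, beside 21.5% and 78.5% of all genes. Tead2 and Tead3 were more than 2-fold lower, and Tead4 was more than 2-fold higher. All genes here are the 18911 that reached 10 counts in at least 1 library, and of them 18.2% were more than 2-fold lower and 9.08% more than 2-fold higher. At the smaller limit of 1.5-fold, 4 members were lower and 1 was higher, beside 26.8% and 16.0% of all genes. All 10 members reached 10 counts and 8 reached 100. Of those 8, Wwtr1, Tead1 and Tead2 were more than 1.5-fold lower and none was higher by that limit, beside 17.2% and 10.7% of genes that reached 100 counts. Intervals lay under 1 for 7 members and over 1 for 2, which was true of 39.9% and 33.2% of all genes. The median log2 ratio of the members was -0.38, beside -0.07 for all genes. Set against the range of the stromal markers, 2 members lay below it (Tead2 and Tead3), 2 within it (Wwtr1 and Tead1) and 6 above it. The intervals of Tead2 (0.355 to 0.644) and Tead3 (0.144 to 0.658) both reach into that range, so their place below it is within counting error.

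**Figure D1:**
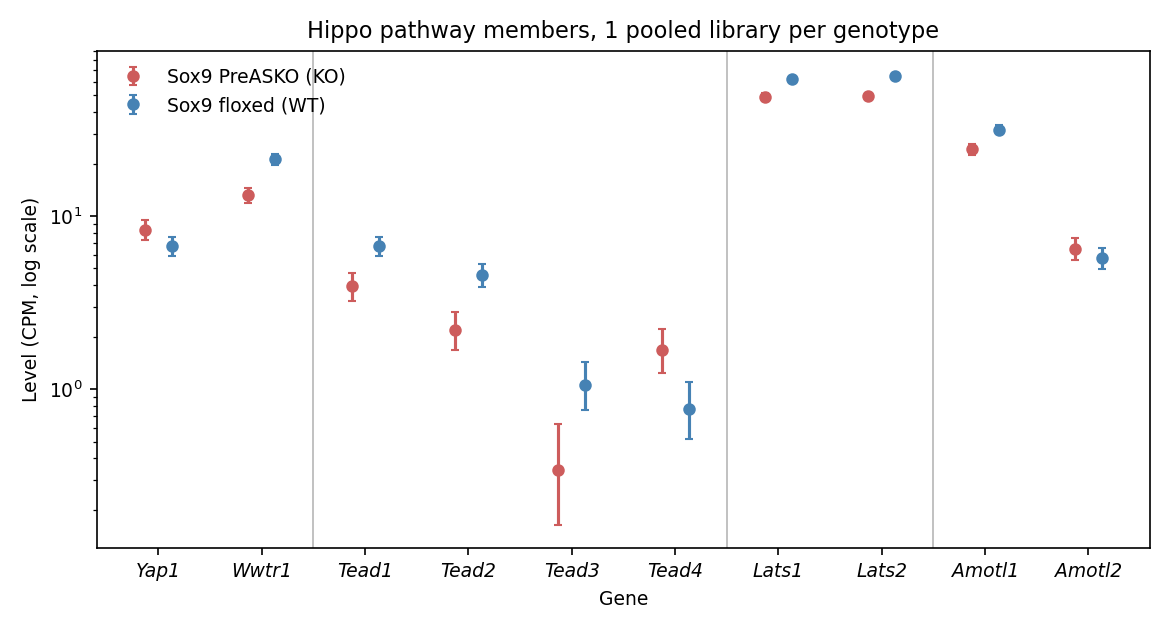
Level of each member in CPM (log scale) in the Sox9 PreASKO library (red, left of each pair) and the Sox9 floxed library (blue). Bars are exact 95% Poisson intervals. Yap1, Tead4 and Amotl2 are the members whose PreASKO point lies above the floxed point, and the intervals of Yap1 and Amotl2 overlap between the libraries.

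**Figure D2:**
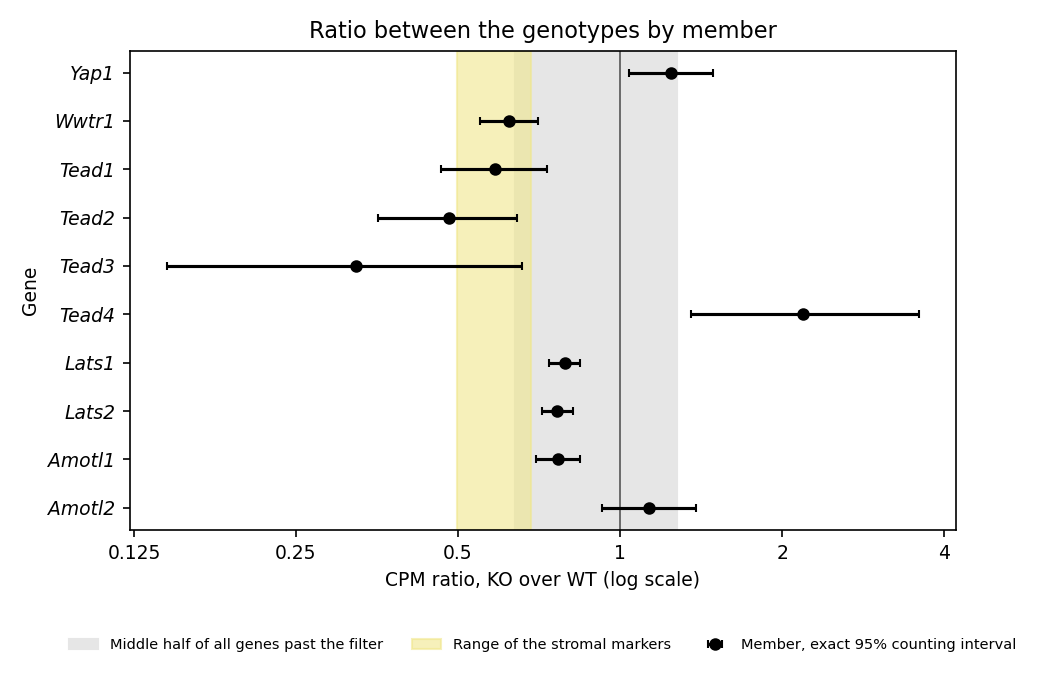
CPM ratio of PreASKO over floxed (log scale) for each member with its exact 95% counting interval. The grey band is the interquartile range of all genes with 10 or more counts, and the yellow band is the range of the 10 stromal markers, 0.498 to 0.682. Wwtr1 and Tead1 lie in the yellow band, Tead2 and Tead3 left of it and the other 6 members right of it.

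The sequences below show where the letters of the core TEAD binding motif, GGAATG, occur before the starts of members and of Ccn1, a gene commonly used as a readout of YAP and TAZ. They come from RefSeq on GRCm38.p6, read 5′ to 3′ on the strand of the gene, and the capitals mark GGAATG or its reverse complement CATTCC. Each is the stretch before the first annotated start, except for Amotl2, where a short stretch around the motif at a later start is shown.

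Yap1 (chr9:8004639-8004846, minus strand): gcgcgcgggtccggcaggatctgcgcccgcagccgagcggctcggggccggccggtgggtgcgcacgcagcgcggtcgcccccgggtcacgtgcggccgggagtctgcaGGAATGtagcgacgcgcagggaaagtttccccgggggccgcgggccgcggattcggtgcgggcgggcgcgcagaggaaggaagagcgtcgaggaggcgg
Wwtr1 (chr3:57575911-57576160, minus strand): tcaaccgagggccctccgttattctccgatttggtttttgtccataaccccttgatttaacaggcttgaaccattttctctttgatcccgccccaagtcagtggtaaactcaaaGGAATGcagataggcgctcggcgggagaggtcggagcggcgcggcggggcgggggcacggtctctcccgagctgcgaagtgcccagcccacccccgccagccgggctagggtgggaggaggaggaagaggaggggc
Tead3 (chr17:28350806-28351055, minus strand): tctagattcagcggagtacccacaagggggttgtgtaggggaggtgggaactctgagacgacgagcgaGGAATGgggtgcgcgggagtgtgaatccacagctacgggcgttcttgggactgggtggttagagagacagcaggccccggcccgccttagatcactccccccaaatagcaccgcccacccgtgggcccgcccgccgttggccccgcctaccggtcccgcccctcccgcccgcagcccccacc
Amotl2 (chr9:102717727-102717756, plus strand): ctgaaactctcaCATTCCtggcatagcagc
Ccn1 (chr3:145649986-145650235, minus strand): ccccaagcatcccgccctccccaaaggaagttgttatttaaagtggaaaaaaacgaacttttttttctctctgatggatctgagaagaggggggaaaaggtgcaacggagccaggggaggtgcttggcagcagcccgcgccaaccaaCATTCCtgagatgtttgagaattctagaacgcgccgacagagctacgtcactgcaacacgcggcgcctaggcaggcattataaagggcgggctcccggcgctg

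The motif was searched on both strands in the 250 bases before each start for which a promoter sequence was at hand. For Amotl1 the only such start was at 14615000 and for Amotl2 at 102717804. Both lie inside the genes, so the outermost starts of these 2 genes were not searched. Promoters of 8 of the 10 members were matched by symbol. Of these, 4 (Yap1, Wwtr1, Tead3 and Amotl2) held the motif before at least 1 start, beside 14.4% of 27025 genes. In Yap1 it began 141 bases before the start used for the search, which lies inside the outermost annotated start of the gene, in Wwtr1 136 bases before the first start, in Tead3 182 bases, in Amotl2 65 bases and in Ccn1 103 bases. Tead3 held 2 more matches, not printed above, 123 and 114 bases before a later start, and none before its last start. The letters were not in these windows for Tead2, Lats1, Lats2 and Amotl1. Genes with the motif had ratios of 0.323 (Tead3), 0.621 (Wwtr1), 1.13 (Amotl2) and 1.24 (Yap1), and genes without it in the windows searched 0.481 (Tead2) to 0.788 (Lats1). The letters thus stood before starts of genes with lower and with higher levels alike, and a match describes the sequence, not binding.

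The coactivators lay on opposite sides of 1 in share of the library, and both were over 1 relative to the summed stromal markers, as were 78.5% of all genes. Wwtr1 (gene ID 97064, chromosome 3 from 57455644 to 57575910 in GRCm38) had 386 counts in the PreASKO library and 803 in the floxed library. This gave 13.2 CPM (11.9 to 14.6) in PreASKO cells and 21.3 CPM (19.8 to 22.8) in floxed cells, a ratio of 0.621 (0.549 to 0.702). The intervals of the levels did not overlap. Relative to the summed stromal markers the ratio of Wwtr1 was 1.09, so it was lower by about as much as these markers were. Yap1 (gene ID 22601, chromosome 9 from 7931999 to 8004638) had 244 counts in PreASKO and 254 in floxed cells, or 8.36 CPM (7.35 to 9.48) and 6.74 CPM (5.93 to 7.62). Its ratio was 1.24 (1.04 to 1.49), an excess whose interval lies close to 1, and the intervals of its levels overlapped. Relative to the stromal markers it was 2.17. The exons of Yap1 overlap the opposite-strand gene Gm20416 over 1.25% of their length, and whether counting used strand is not stated in the sources used here.

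The balance between the coactivators does not depend on how libraries are scaled, but it rests almost wholly on repeat-distributed counts. Yap1 had 0 raw counts in both libraries, and Wwtr1 had 18 in PreASKO and 24 in floxed cells. The balance could therefore not be read from raw counts alone. Not corrected for gene length, there were 0.632 Yap1 counts for each Wwtr1 count in the PreASKO library and 0.316 in the floxed library, which is 2.00-fold more in PreASKO (1.60 to 2.49). Yap1 thus made up 38.7% (34.9 to 42.7) of the counts of both genes in PreASKO cells and 24.0% (21.5 to 26.7) in floxed cells. Summed, the coactivators had 21.6 CPM in PreASKO cells and 28.0 CPM in floxed cells, a ratio of 0.770 (0.697 to 0.851). Per kilobase of exon, Wwtr1 stood above Yap1 in both libraries, at 2.77 and 0.904 CPM per kilobase in PreASKO cells and 4.46 and 0.728 CPM per kilobase in floxed cells. The pairs compared within libraries here and below were chosen after the levels had been seen.

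TEAD proteins bring YAP and TAZ to DNA, and per kilobase of exon Tead3 was the lowest of all members in both libraries. Tead1 (gene ID 21676, chromosome 7 from 112679356 to 112906784) had 115 counts in PreASKO and 254 in floxed cells, or 3.94 CPM (3.25 to 4.73) and 6.74 CPM (5.93 to 7.62), a ratio of 0.585 (0.465 to 0.732). Tead2 (gene ID 21677, chromosome 7 from 45215792 to 45233468) had 64 counts in PreASKO and 172 in floxed cells, or 2.19 CPM (1.69 to 2.80) and 4.56 CPM (3.91 to 5.30), a ratio of 0.481 (0.355 to 0.644). For both genes the PreASKO level lay below the floxed level with no overlap of the intervals. Tead3 (gene ID 21678, chromosome 17 from 28331671 to 28350805) had 10 counts in PreASKO and 40 in floxed cells, or 0.343 CPM (0.164 to 0.630) and 1.06 CPM (0.758 to 1.44). Its ratio of 0.323 (0.144 to 0.658) rests on few counts. In the authors' deposited table the fold of Tead2 was 0.507 and that of Tead3 0.336, so Tead2 stood inside the 2-fold limit there.

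Tead4 ran the other way. Tead4 (gene ID 21679, chromosome 6 from 128227143 to 128300813), known for its role in the trophectoderm of the early embryo, had 49 counts in the PreASKO library and 29 in the floxed library. Its level was 1.68 CPM (1.24 to 2.22) in PreASKO cells and 0.769 CPM (0.515 to 1.10) in floxed cells, a ratio of 2.18 (1.35 to 3.59). Relative to the summed stromal markers, Tead4 stood at 3.82 (2.37 to 6.27), Tead1 at 1.02 (0.814 to 1.28), Tead2 at 0.841 (0.621 to 1.13) and Tead3 at 0.565 (0.252 to 1.15), with intervals that hold the counting error of each TEAD gene alone. Of the TEAD genes, then, Tead4 was higher on both scales, while Tead1, Tead2 and Tead3 were lower in share of the library and had intervals that hold 1 relative to the stromal markers.

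Among all TEAD counts, Tead4 held 20.6% (15.6 to 26.3) in PreASKO cells and 5.86% (3.96 to 8.31) in floxed cells. For each count of the other TEAD genes there were 0.259 Tead4 counts in PreASKO and 0.0622 in floxed cells, which is 4.17-fold more (2.49 to 7.05) whatever the scaling. The proportions of Tead1 to Tead2 (1.80 in PreASKO, 1.48 in floxed cells, a quotient of 1.22 from 0.835 to 1.78) and of Tead3 to both (0.0559 and 0.0939, a quotient of 0.595 from 0.260 to 1.24) had intervals that hold 1. Summed, the TEAD genes had 8.16 CPM in PreASKO cells and 13.1 CPM in floxed cells, a ratio of 0.621 (0.530 to 0.727), and 1.09 relative to the stromal markers.

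**Figure D3:**
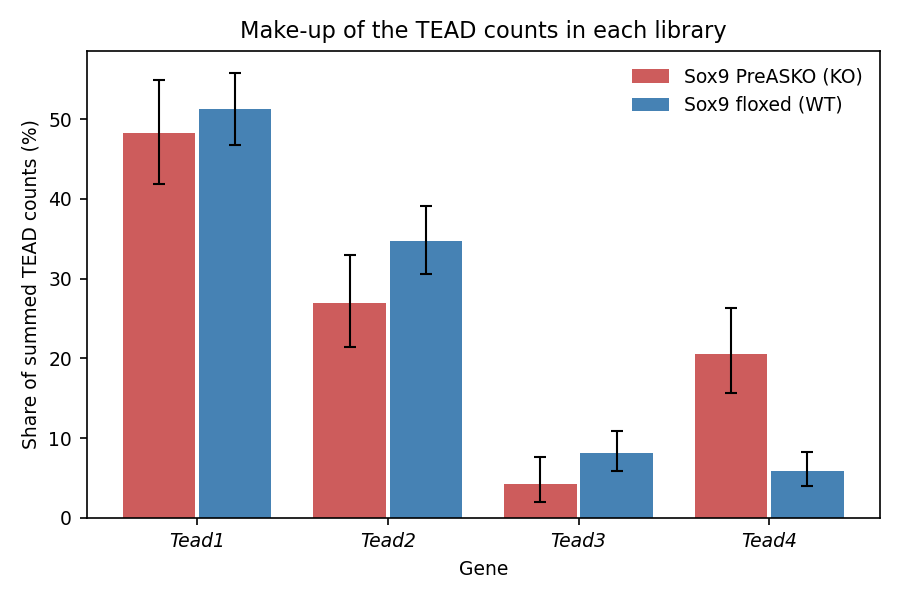
Share of the summed TEAD counts (percent) held by each TEAD gene in the Sox9 PreASKO library (red, left) and the Sox9 floxed library (blue), from 238 and 495 counts. Bars are exact 95% binomial intervals. The intervals of Tead4 do not overlap between the libraries, and those of Tead1, Tead2 and Tead3 do.

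Tead4 is also a gene of skeletal muscle precursors, and muscle markers did not move one way. Of 5 muscle markers 3 were higher in PreASKO (Acta1, Myh4 and Ckm) and 2 were lower (Myl1 and Des), with a summed level of 37.5 CPM in PreASKO cells and 35.2 CPM in floxed cells and none at 0. Ckm had 14 counts in PreASKO and 10 in floxed cells, and the interval of its ratio (0.748 to 4.55) holds 1. The part of the muscle markers in the level of Tead4 was not tested.

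Per kilobase of exon, the LATS kinases were the most abundant members in both libraries. Lats1 (gene ID 16798, chromosome 10 from 7681200 to 7716461) had 1423 counts in PreASKO and 2333 in floxed cells, or 48.8 CPM (46.3 to 51.4) and 61.9 CPM (59.4 to 64.4), a ratio of 0.788 (0.738 to 0.842). Lats2 (gene ID 50523, chromosome 14 from 57689662 to 57746212) had 1436 counts in PreASKO and 2426 in floxed cells, or 49.2 CPM (46.7 to 51.8) and 64.3 CPM (61.8 to 67.0), a ratio of 0.765 (0.716 to 0.817). Both were lower in share of the library, and both were higher relative to the summed stromal markers, at 1.38 and 1.34, as were 78.5% of all genes on that scale. The count of Lats2 for each count of Lats1 was 1.01 in PreASKO and 1.04 in floxed cells, a quotient of 0.970 (0.884 to 1.07), so no difference in their balance could be detected. The value of Lats2 is less certain than that of Lats1, because 42.4% of its exon length in GENCODE M21 overlaps the predicted gene Gm49361 on the same strand, and all of its counts are repeat-distributed.

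The proportion of coactivator to kinase counts did not differ between the libraries beyond counting error. For each count of Lats1 and Lats2 there were 0.220 counts of Yap1 and Wwtr1 in PreASKO cells and 0.222 in floxed cells, a quotient of 0.992 (0.888 to 1.11). TEAD counts for each coactivator count were 0.378 in PreASKO and 0.468 in floxed cells, a quotient of 0.807 (0.668 to 0.973).

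The angiomotin-like proteins hold YAP and TAZ at junctions and actin and promote their phosphorylation by LATS kinases. Amotl1 (gene ID 75723, chromosome 9 from 14541966 to 14662974) had 710 counts in PreASKO and 1195 in floxed cells, or 24.3 CPM (22.6 to 26.2) and 31.7 CPM (29.9 to 33.5), a ratio of 0.768 (0.699 to 0.843) that became 1.34 relative to the summed stromal markers. Amotl2 (gene ID 56332, chromosome 9 from 102717091 to 102733418), which is itself a target of YAP and TAZ, had 189 counts in PreASKO and 216 in floxed cells, or 6.48 CPM (5.59 to 7.47) and 5.73 CPM (4.99 to 6.55). Its ratio of 1.13 (0.925 to 1.38) was within counting error of equal levels, and it was 1.98 relative to the stromal markers. For each Amotl1 count there were 0.266 Amotl2 counts in PreASKO and 0.181 in floxed cells, 1.47-fold more in PreASKO (1.18 to 1.84). Amotl2 and Lats2, both known as feedback targets of YAP and TAZ, thus lay on opposite sides of 1 in share of the library, with the interval of Amotl2 holding 1. Both were over 1 relative to the stromal markers, as were 78.5% of all genes.

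Per kilobase of exon Lats2, Lats1, Wwtr1 and Amotl1 led in that order in both libraries, and Tead3 was lowest. In PreASKO cells Lats2 (7.06 CPM per kilobase) and Lats1 (6.68) led, with overlapping intervals, followed by Wwtr1 (2.77) and Amotl1 (2.42), also overlapping, then Amotl2 (1.03) and Yap1 (0.904), Tead4 (0.467) and Tead2 (0.458), Tead1 (0.290) and Tead3 (0.0511). In floxed cells the order was Lats2 (9.23), Lats1 (8.48), Wwtr1 (4.46), Amotl1 (3.15), Tead2 (0.953), Amotl2 (0.911), Yap1 (0.728), Tead1 (0.496), Tead4 (0.214) and Tead3 (0.158). There the intervals of Tead2, Amotl2 and Yap1 overlapped from neighbour to neighbour, and so did those of Tead4 and Tead3. Tead4 thus stood beside Tead2 in PreASKO cells and beside Tead3, the lowest member, in floxed cells. Exon lengths join all annotated transcripts, so genes with long joined exons, such as Tead1 with 13570 bases from 15 transcripts, are set low on this scale.

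Other genes of the pathway were read from lists of 72 distinct genes, of which 67 were listed and 64 had 10 or more counts. Of these, 15 were more than 1.5-fold lower (23.4%) and 2 more than 1.5-fold higher (3.13%), beside 26.8% and 16.0% of all genes, and their median log2 ratio was -0.26. The lower share was thus near that of all genes at this minimum of 10 counts. Not all 64 reached 100 counts. Of those that did, 12 were more than 1.5-fold lower and 2 higher, beside 17.2% and 10.7% of all genes that reached 100 counts. Of the 64 genes, 3 were lower and 30 higher by the 1.5-fold limit relative to the summed stromal markers, beside 13.5% and 58.3% of all genes on that scale.

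The list of 22 genes of core kinases, their partners and regulators, and LATS-related kinases had a median log2 ratio of -0.12 in the PreASKO library, with 3 genes more than 1.5-fold lower and 1 higher, beside 26.8% and 16.0% of all genes. Relative to the summed stromal markers 20 of the 22 were over 1, beside 78.5% of all genes. The core kinase genes Stk3 and Stk4 had ratios of 0.782 (0.725 to 0.842) and 0.811 (0.741 to 0.886), near those of Lats1 and Lats2, and of 1.37 and 1.42 relative to the stromal markers. The genes of their partner proteins, Sav1, Mob1a and Mob1b, had ratios of 1.19, 1.23 and 1.24. Frmd6, a FERM-domain regulator of the pathway, had 18.6 CPM in PreASKO cells and 38.2 CPM in floxed cells, a ratio of 0.489 (0.442 to 0.540) and 0.855 relative to the stromal markers. Frmd6 had fewer than 10 raw counts in each library, so its ratio rests almost wholly on repeat-distributed counts. Stk38l, a kinase related to LATS, was at 0.646 (0.467 to 0.886) and at 1.13 relative to the stromal markers, and Taok2, a kinase that activates the core kinases, at 1.60 (1.51 to 1.70). The scaffold gene Wwc1 was at 0.425 from 26 counts in PreASKO and 79 in floxed cells. Stk3, Stk4, Sav1, Mob1a, Mob1b and Wwc1 were named after their values had been seen.

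Genes whose products counter the kinases, 9 LIM-domain and STRIPAK genes, had a median log2 ratio of -0.29, and all 9 were over 1 relative to the summed stromal markers, beside 78.5% of all genes. In share of the library 6 were lower and 3 higher, beside 54.2% and 45.8% of all genes. By the 1.5-fold limit 1 was lower and 1 higher, beside 26.8% and 16.0% of all genes. Strn, a scaffold of the STRIPAK phosphatase complex, had 18.3 CPM in PreASKO and 9.97 CPM in floxed cells, a ratio of 1.84 (1.61 to 2.10). Strn too had fewer than 10 raw counts in each library, so its ratio rests almost wholly on repeat-distributed counts. Vestigial-like proteins bind TEAD, and VGLL4 competes with YAP for it. Vgll4 had a ratio of 0.727, or 1.27 relative to the stromal markers, and Vgll3 one of 0.239, or 0.418 relative to them, from 17 counts in PreASKO and 92 in floxed cells, and both were named after their values had been seen.

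Of 14 polarity and junction genes with 10 or more counts, 13 had ratios under 1, beside 54.2% of all genes, but relative to the summed stromal markers 5 were under and 9 over 1, beside 21.5% and 78.5% of all genes. In share of the library 6 were more than 1.5-fold lower, beside 26.8% of all genes, and the median log2 ratio was -0.43. Fat4, an atypical cadherin that acts upstream of the pathway, had 31.8 CPM in PreASKO cells and 75.2 CPM in floxed cells, a ratio of 0.424 (0.393 to 0.456). Its paralog Fat1 had a ratio of 0.575 (0.542 to 0.610), and Fat3 had 4 counts in PreASKO and 138 in floxed cells, a ratio of 0.0375 (0.0101 to 0.0981). Tjp1, which encodes the junction protein ZO-1, stood at 76.1 CPM in PreASKO and 158 CPM in floxed cells, a ratio of 0.482 (0.459 to 0.506), and Prkci, an atypical protein kinase C gene of cell polarity, at 0.569 (0.492 to 0.656). Fat4, Fat1 and Tjp1 had fewer than 10 raw counts in each library, so their ratios rest almost wholly on repeat-distributed counts. Relative to the summed stromal markers these genes stood at 0.741 (Fat4), 1.01 (Fat1), 0.0655 (Fat3), 0.843 (Tjp1) and 0.995 (Prkci). Several marker lists shared the direction of these genes, with ratios of unlike size. All 7 mesothelial markers had ratios under 1 (0.00468 to 0.0663), and so had all 10 stromal (0.498 to 0.682) and all 7 mural markers (0.495 to 0.979). The 5 epithelial markers with 10 or more counts also had ratios under 1, 4 of them with intervals under 1 (Krt14, Krt8, Krt18 and Cdh1). The summed level of the epithelial list was 0.754 CPM in PreASKO and 13.7 CPM in floxed cells. The part of these lists was not tested.

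The usual readout genes of YAP and TAZ had unlike ratios. Ccn1, which encodes a matricellular protein and is listed as Cyr61, had 2784 counts in PreASKO and 7889 in floxed cells, or 95.4 and 209 CPM, a ratio of 0.456 (0.437 to 0.476) and 0.798 relative to the stromal markers. Ccn2, its paralog listed as Ctgf, had 331 counts in PreASKO and 396 in floxed cells, or 11.3 and 10.5 CPM, a ratio of 1.08 (0.931 to 1.25) that holds equal levels and was 1.89 relative to the stromal markers. Ankrd1 had 0 counts in PreASKO, where the 3 counts set in place of 0 would be 0.103 CPM, and 4 in floxed cells. Of 18 target genes outside the members with 10 or more counts, 4 were more than 1.5-fold lower and none was higher by that limit, beside 26.8% and 16.0% of all genes, with a median log2 ratio of -0.19. All 4 had 100 or more counts, and of genes with that many counts 17.2% were past the 1.5-fold limit on the lower side. Tgfb2, which encodes a TGF-beta ligand and was named after its value had been seen, lay just under that limit, at 10.2 CPM in PreASKO and 6.82 CPM in floxed cells (interval of the ratio 1.26 to 1.78), and it was past the limit with TMM or median-of-ratios scaling. Relative to the summed stromal markers 15 of the 18 were over 1, beside 78.5% of all genes. The 4 were Ccn1, Ccdc80 (0.536), Arhgef17 (0.545) and Rbms3 (0.614). Relative to the stromal markers Ccdc80 stood at 0.937, Arhgef17 at 0.953 and Rbms3 at 1.07.

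**Figure D4:**
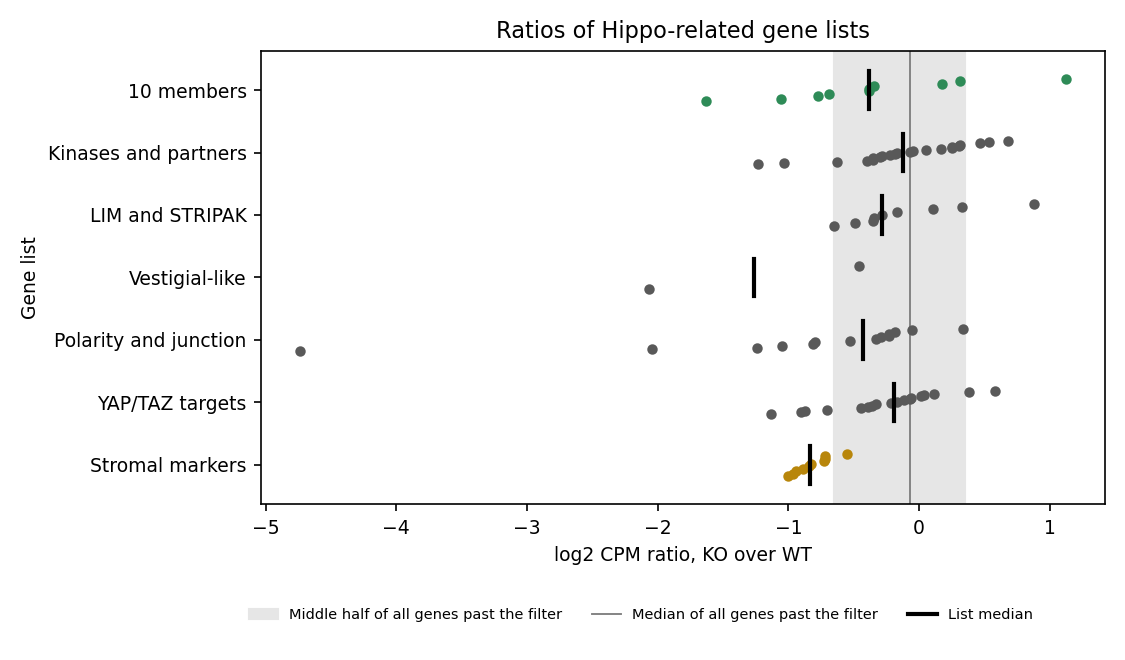
log2 CPM ratio of PreASKO over floxed for the 10 members, 5 further Hippo-related lists and the 10 stromal markers, 1 point per gene with 10 or more counts. Black bars are list medians, the grey band is the interquartile range of all genes and the grey line is their median, -0.07. The members spread on both sides of that line, with a median of -0.38, and the stromal markers all lie left of it.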

How the data were processed

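The table deposited by the authors gives for every gene, per the file headers, raw counts and repeat-distributed counts of each library, with a fold (a ratio of KO over WT) and its log2. Repeat-distributed values, as deposited, are estimated counts, 99.7% of which lie within 0.01 of a whole number. How such reads were shared out is not stated, and they make up over 90% of counts for 8 of the 10 members. Of all counts in the library they make up 50.6% in PreASKO and 49.1% in floxed cells. Intervals treat repeat-distributed counts as independent reads and may be too narrow. Per the submitters' processing notes reads were placed on mm10. The aligner and counter: not given in the sources used here.

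Both counts were summed, rounded and scaled to the library total. Ratios carry the exact conditional (Clopper-Pearson) interval of a pair of counts, levels the exact Poisson interval, quotients of 2 ratios the exact conditional interval of an odds ratio, and shares the exact binomial interval. A count of 0 was set to 3 counts where lists were summarised. The members and lists were chosen with earlier results of these data known. Named list genes had 100 or more counts in the larger library, a ratio past 1.5-fold and an interval without 1, up to 4 per list and direction (for polarity genes, Fat1 was named as the fifth), and 1 gene that met this rule is not reported here. Exon lengths, overlaps and transcripts came from GENCODE M21, and gene coordinates from RefSeq GRCm38.p6, the same assembly as mm10. The members shared few sequence stretches of 50 bases with other genes, 0.548% at most apart from Lats2, with 41.2%. The calculation was tested on simulated data. Calculations ran in Python 3.11.15 (scipy 1.17.1, numpy 2.4.6, pandas 2.3.3), figures in matplotlib 3.10.9, and TMM factors alone in edgeR 4.0.16 with R 4.3.3.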

Additional observations from a re-analysis of the deposited data

How the results depend on the processing

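Scaling to the stromal markers moved all genes alike, so it changed the members' directions but not their place among all genes. With TMM (factors 0.991 for PreASKO and 1.01 for floxed), median-of-ratios or a total without mitochondrial and haemoglobin genes, 7 of 10 members were lower and 3 higher, as with the library total. Scaled to the summed stromal markers, 0 members were over 2-fold lower and 2 higher, 1 was over 1.5-fold lower and 3 higher, and the median log2 ratio was 0.42, beside 0.74 for all genes (-0.38 and -0.07 with the library total). Log2 ratios then became 0.12 for Wwtr1, 0.0335 for Tead1, 0.46 for Lats1, 0.42 for Lats2, 0.43 for Amotl1 and 0.00749 for Fat1, and 3 pathway genes were over 1.5-fold lower and 30 higher. Collagens hold 82.2% of the summed stromal counts in PreASKO and 80.7% in floxed cells, so a scaling by the median stromal ratio was added after the data had been seen. It gave 0 and 3 members past 2-fold, 1 and 3 past 1.5-fold, a median of 0.45 and 3 and 32 pathway genes (lower and higher), with 0.15 for Wwtr1, 0.0617 for Tead1, 0.49 for Lats1, 0.45 for Lats2, 0.45 for Amotl1 and 0.0356 for Fat1. Raw counts alone left 4 members with 10 or more counts, of which 0 were lower and 2 higher past both limits, with a median of 0.71. Wwtr1 was then at -0.00237, from 18 counts in PreASKO and 24 in floxed cells. Amotl1 was at 2.15, from 10 counts in PreASKO and 3 in floxed cells. Of the pathway genes, 8 were lower and 0 higher with raw counts. Repeat-distributed counts alone gave 4 higher pathway genes. With TMM, median-of-ratios or repeat-distributed counts 1 target gene was over 1.5-fold higher, against 0 with the library total. The authors' deposited fold gave 1 member over 2-fold lower, and log2(CPM + 1) gave 0 over 2-fold in either direction. With 100 or more counts required, Tead3 and Tead4 dropped out, which left 1 over 2-fold lower, 0 higher and 0 over 1.5-fold higher. No paired analysis was possible because each group has 1 library, and no replicate could be left out. Depth limits Tead3 and Tead4 most, with 50 and 78 counts over both libraries.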
